A study of Mus musculus with 9 samples.

Results

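The genes described here are 57 factors of ribosome biogenesis and of the nucleolus, out of 55487 genes counted in RNA-seq libraries of J774A.1 cells. All 57 matched 1 gene each by symbol and all 57 passed the filter on low counts, as did 13453 genes in all. Each of the 57 had at least 190 reads in every library. They were listed for their work in rRNA transcription, rRNA processing and pre-ribosome assembly, and were selected on that function with their fold changes against the safe guide in view, so values of the contrasts of sgRNA 11 and of sgRNA 15 with the safe guide are given as a description. The study asked how gene expression differs without SLC12A9 when glutamine, whose use by cells gives ammonia, is absent. J774A.1 is a mouse macrophage line, and each of 3 groups held 3 libraries. The safe sgRNA group carries a control guide and the genotype label WT. The sgRNA 11 and sgRNA 15 groups carry a guide against SLC12A9, a member of the cation-chloride cotransporter family, and the genotype label SLC12A9 knockdown, while the design text speaks of a knockout. The cells of all 3 groups had been grown in DMEM with 10% fetal bovine serum, L-glutamine, penicillin and streptomycin. They were then kept for 6 h in DMEM that held the antibiotics but neither serum nor glutamine, so every library, the controls included, comes from serum-deprived cells. The RNA was poly(A)-enriched and depleted of rRNA. Whether a guide line is a clone or a pool, and whether replicates are separate cultures, is not given in the sources used here, so p-values measure the spread between these libraries, which may be technical.

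Ribosome assembly starts in the nucleolus, where RNA polymerase I transcribes a long precursor rRNA. Small nucleolar ribonucleoproteins (snoRNPs) modify this precursor, box C/D particles by methylating riboses and box H/ACA particles by converting uridines to pseudouridines, while the UtpA and UtpB complexes and other factors fold its leading end into the 90S particle, from which the small subunit (40S) is released. The large subunit (60S) is built on the rest of the precursor by other factors, among them the PeBoW complex. Macrophages, like other cells, make fewer or more ribosomes as growth conditions change, and the mRNAs of these assembly factors are widely known to move together.

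Promoter windows of the RefSeq annotation, each with 250 bases before and 50 after an annotated start, were at hand for 50 of the 57 genes (54 windows, build GRCm38.p6, the assembly called mm10). The genes without one were Npm1, Rrs1, Bop1, Rrp12, Fbl, Tcof1 and Wdr36. Each window was searched on both strands for 2 short motifs, CACGTG, an E-box bound by basic helix-loop-helix factors such as the MYC and MAX pair, and CCGGAAG, a core bound by ETS factors. CACGTG is its own reverse complement, CCGGAAG reads CTTCCGG on the other strand, and a match to one motif cannot overlap a match to the other. The windows of 5 genes are printed in the direction of the gene, with matches to either motif in capitals, as an example of each arrangement that is used further on, chosen after the values were seen. Nop2 (chr6:125131633-125131932, plus strand), Utp18 (chr11:93885717-93886016, minus strand) and Tsr1 (chr11:74897830-74898129, plus strand) held both motifs and were lower with both guides. Polr1c (chr17:46247996-46248295, minus strand) held the ETS core and was the only one of the 57 genes to be called higher with both guides. Ncl (chr1:86359406-86359705, minus strand), the most abundant of the 57 by reads, held neither. Its window lies wholly before the start of Ncl in the GENCODE annotation, from which the gene positions given further on were taken.
Nop2: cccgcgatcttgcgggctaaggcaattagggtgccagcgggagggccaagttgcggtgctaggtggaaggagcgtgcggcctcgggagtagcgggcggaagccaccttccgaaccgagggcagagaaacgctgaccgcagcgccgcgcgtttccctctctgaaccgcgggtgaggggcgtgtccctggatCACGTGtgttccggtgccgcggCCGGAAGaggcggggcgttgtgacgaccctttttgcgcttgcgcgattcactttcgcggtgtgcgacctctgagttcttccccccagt
Utp18: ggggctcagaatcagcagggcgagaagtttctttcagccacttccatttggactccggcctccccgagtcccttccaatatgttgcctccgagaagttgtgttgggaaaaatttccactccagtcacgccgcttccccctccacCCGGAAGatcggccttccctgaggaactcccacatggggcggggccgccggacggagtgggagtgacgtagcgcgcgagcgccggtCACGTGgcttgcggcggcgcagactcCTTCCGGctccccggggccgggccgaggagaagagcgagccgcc
Tsr1: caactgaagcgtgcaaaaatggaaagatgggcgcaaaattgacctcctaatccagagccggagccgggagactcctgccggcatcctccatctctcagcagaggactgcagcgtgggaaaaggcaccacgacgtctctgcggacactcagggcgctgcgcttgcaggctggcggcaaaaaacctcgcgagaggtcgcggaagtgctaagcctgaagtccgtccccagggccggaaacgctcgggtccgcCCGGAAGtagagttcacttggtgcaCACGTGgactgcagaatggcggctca
Polr1c: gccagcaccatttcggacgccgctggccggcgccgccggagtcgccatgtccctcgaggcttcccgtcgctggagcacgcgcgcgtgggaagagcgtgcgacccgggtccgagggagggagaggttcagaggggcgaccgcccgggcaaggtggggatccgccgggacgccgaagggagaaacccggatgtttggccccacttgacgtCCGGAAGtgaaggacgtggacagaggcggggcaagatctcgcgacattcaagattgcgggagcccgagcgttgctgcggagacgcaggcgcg
Ncl: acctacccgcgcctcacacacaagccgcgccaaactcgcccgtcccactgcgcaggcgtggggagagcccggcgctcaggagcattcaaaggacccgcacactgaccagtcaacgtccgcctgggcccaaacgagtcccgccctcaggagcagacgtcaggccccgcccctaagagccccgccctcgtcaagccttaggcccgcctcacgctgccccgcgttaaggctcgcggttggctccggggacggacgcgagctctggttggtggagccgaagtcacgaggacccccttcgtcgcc
In the window of Nop2 the E-box began 60 bases before the start (position -60) and the ETS core at position -38. In Utp18 the E-box lay at -20 with ETS cores at -106 and 7, and in Tsr1 the E-box lay at 25 and the ETS core at -1. The single ETS core of Polr1c began at -42.

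Libraries held 16405296 to 25613961 reads in genes. The mRNA of Slc12a9 itself stood at 48.4 ± 4.49 CPM (a gene's reads scaled by library size with TMM factors, mean ± SD of 3 libraries) with the safe guide, 65.3 ± 2.38 with sgRNA 11 and 49.97 ± 1.73 with sgRNA 15. It was thus not lower in the libraries labelled knockdown, and the names sgRNA 11 and sgRNA 15 stand for the labels throughout. All 12 macrophage markers listed were present, the lowest at 27.5 CPM. Of 21 markers of T cells, B cells, fibroblasts, epithelium and endothelium, 10 were at 0 and 18 stayed under 1 CPM in every library. With sgRNA 11, 9 of the 12 macrophage markers were called higher and 3 lower, where 33.3% and 32.4% of all genes tested were. With sgRNA 15, 8 and 3 of the 12 were, where 32.2% and 30.7% of all genes were. The summed level of the 12 markers ran from 7663 to 7867 CPM with the safe guide. It ran from 11703 to 12040 with sgRNA 11 and from 10537 to 10687 with sgRNA 15, and its part in the results that follow was not tested. In bulk RNA a lower level in every cell and a lower share of cells with the RNA cannot be told apart.

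Nearly all of the 57 genes were lower with both guides. With sgRNA 11, 55 were called lower than with the safe guide, 1 higher and 1 neither way, in edgeR's quasi-likelihood test at an adjusted p of 0.05, where 65.8% of all genes tested were called, 32.4% lower and 33.3% higher. With sgRNA 15, 53 were called lower, 1 higher and 3 neither way, where 62.9% of all genes were called, 30.7% lower and 32.2% higher. The 53 genes were lower with both guides, as were 25.7% of all genes. The median log2 fold change of the 57 genes was -0.68 with sgRNA 11 and -0.60 with sgRNA 15, and that of all genes tested was 0.01 in both. In 54 genes each guide's 3 libraries all lay under the 3 safe libraries, which held for 33.3% of all genes with sgRNA 11 and 32.3% with sgRNA 15. In 1 gene they all lay above (34.3% and 33.5% of all genes), and in 2 they overlapped. A log2 decrease of 0.5 or more with both guides was found for 37 of the genes and for 7.11% of all genes. A log2 decrease of 1 or more was found for 9 genes with sgRNA 11 (2.66% of all genes) and for 4 with sgRNA 15 (1.88%). Since the genes were chosen with these contrasts known, nothing further is read from these shares. The comparisons with sgRNA 11 and with sgRNA 15 share their 3 safe libraries.

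**Figure D1:**
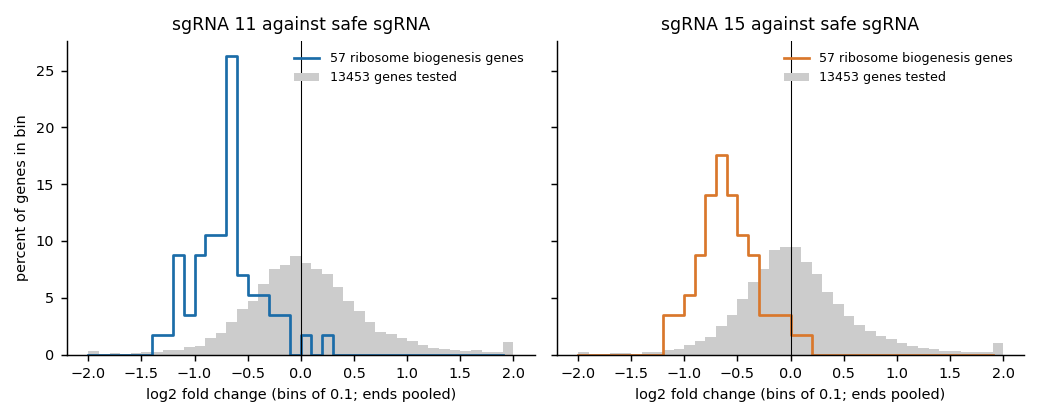
Percent of genes (vertical axis) in bins of 0.1 of the log2 fold change (horizontal axis) with sgRNA 11 (left) and sgRNA 15 (right) against the safe guide, for all 13453 genes tested (grey) and the 57 ribosome biogenesis genes (coloured line). All genes centre at 0.01, and the 57 genes centre at -0.68 and -0.60.

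Together the 57 mRNAs took 1.04, 1.04 and 1.03% of gene reads in the 3 safe libraries, 0.617, 0.620 and 0.615% with sgRNA 11, and 0.676, 0.671 and 0.673% with sgRNA 15. The 3 groups did not overlap, and their mean share with the guides was 59.6% and 65.0% of that with the safe guide. By role, the share with sgRNA 11 was lowest against safe for the nucleolar scaffold genes (50.9%), the box C/D proteins (52.8%) and UtpA (54.0%). It was 61.6% for the other 60S factors, 62.9% for late 40S factors, 63.9% for UtpB, 64.3% for the H/ACA proteins, 69.3% for PeBoW and 72.7% for the other 90S factors. RNA polymerase I transcription genes kept the most of their summed reads, 90.4% with sgRNA 11 and 85.5% with sgRNA 15. Polr1a and Tcof1 weigh most in this sum. By the median log2 fold change of its genes, this group was nearest to 0 with sgRNA 11 (-0.34). With sgRNA 15 it stood at -0.47, and the other 90S factors were nearer to 0 (-0.43). With sgRNA 15 the scaffold and box C/D genes were again lowest (57.7% and 57.6%), and the other 90S factors (79.7%) and UtpB (74.7%) stood higher. By summed reads, genes for the small and for the large subunit stood close together with sgRNA 11. The 22 factors of the 90S and 40S particles stood at 63.8% and the 17 factors of the 60S particle at 63.2%. With sgRNA 15 they stood at 71.3% and 67.1%. By the median log2 fold change the 60S factors stood lower with both guides. Their medians were -0.77 and -0.63 with sgRNA 11 and sgRNA 15, against -0.64 and -0.54 for the 90S and 40S factors.

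**Figure D2:**
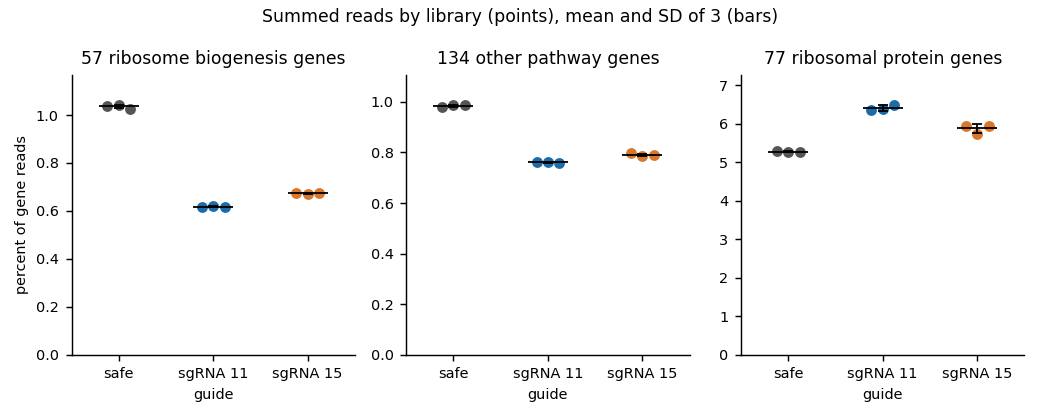
Percent of gene reads (vertical axis, from 0) taken by the 57 ribosome biogenesis genes, by 134 other genes of the pathway and by 77 ribosomal protein genes, in each library of the 3 guide groups (points), with the mean and SD of 3 libraries (bars). The 57 genes took 1.03 to 1.04% with the safe guide and 0.615 to 0.676% with the guides, and ribosomal protein genes stood higher with the guides.

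**Figure D3:**
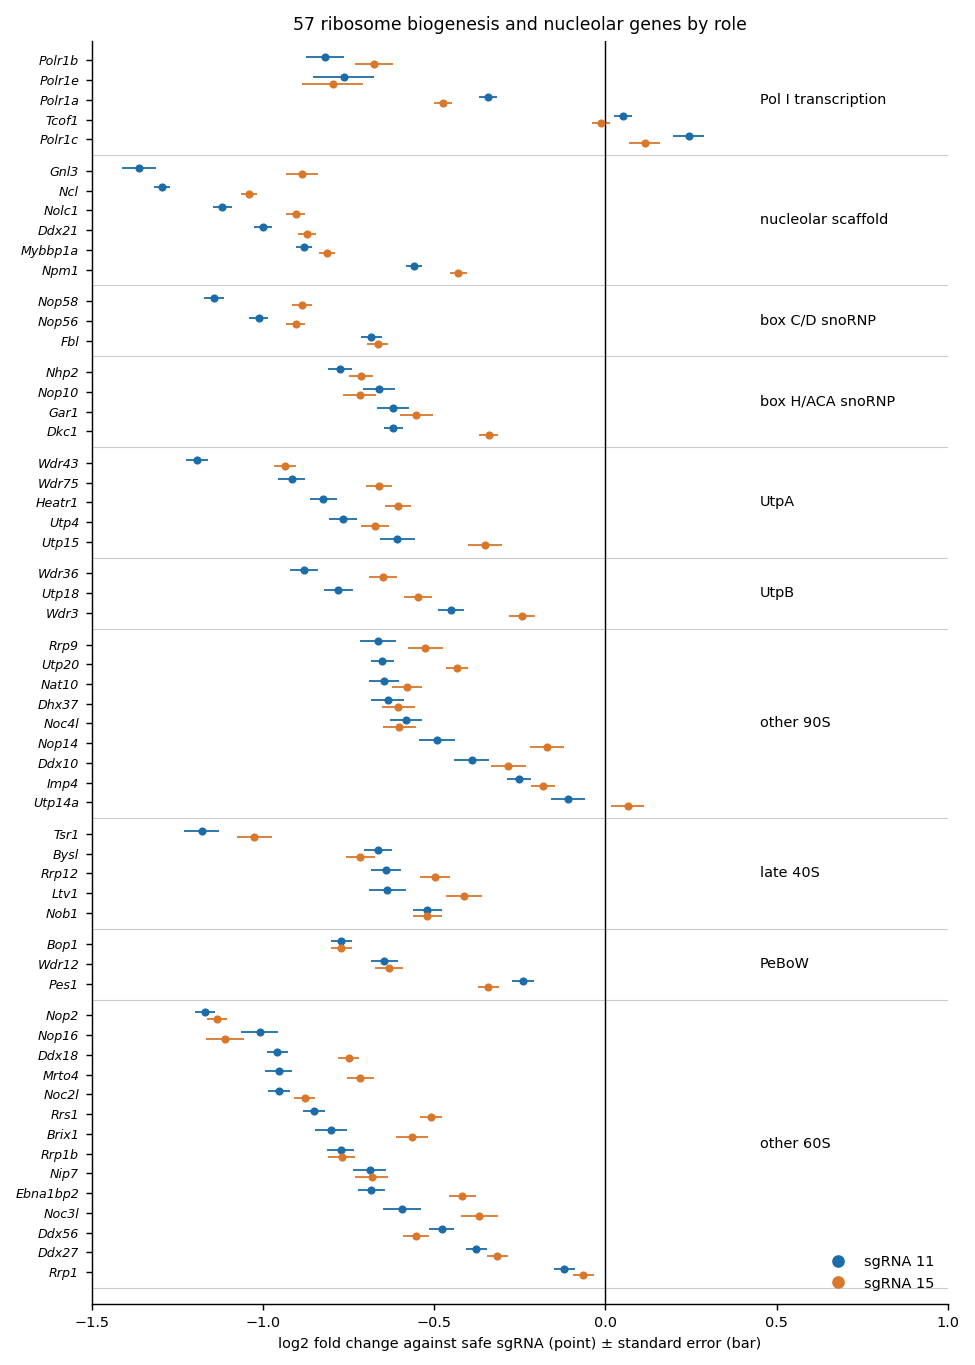
Log2 fold change against the safe guide (horizontal axis) of each of the 57 genes, sorted by role and then by the value with sgRNA 11, with its standard error (bars). Blue points are sgRNA 11 and orange points sgRNA 15; Polr1c, Tcof1, Utp14a and Rrp1 sit nearest to or right of 0.

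The polymerase I group was the one in which members went separate ways, with 3 of 5 genes lower with both guides, 1 higher with both and 1 not called. Of all genes tested, 25.7% were called lower with both guides. Polr1a (ENSMUSG00000049553, mm10 chr6:71909053-71984935, plus strand), the largest catalytic subunit, was at 324, 326 and 333 CPM with the safe guide, 262, 249 and 263 with sgRNA 11, and 232, 239 and 237 with sgRNA 15. The 3 groups did not overlap, and the log2 fold changes were -0.34 ± 0.03 (SE) and -0.47 ± 0.03. Polr1b, the second-largest subunit, was lower by more, from 51.0, 48.6 and 57.1 CPM to 29.3, 30.6 and 28.8 with sgRNA 11 and 33.0, 33.4 and 31.3 with sgRNA 15. Polr1e, a subunit particular to polymerase I, was the least abundant of the 57, at 19.1 ± 2.43 CPM with the safe guide, 11.2 ± 0.485 with sgRNA 11 and 11.0 ± 0.454 with sgRNA 15. Polr1c (ENSMUSG00000067148, chr17:46243920-46248054, minus strand), a subunit that polymerase I shares with polymerase III, went the other way. It was at 53.0, 51.3 and 53.9 CPM with the safe guide, 62.2, 61.1 and 63.8 with sgRNA 11 and 57.9, 56.5 and 57.01 with sgRNA 15. All 6 guide libraries of Polr1c lay above the safe ones, at log2 fold changes of 0.24 ± 0.045 and 0.12 ± 0.045, and 26% of all genes were called higher with both guides. The call with sgRNA 15 was lost in DESeq2 (adjusted p = 0.068), with no filter on low counts (0.052) and without safe replicate 2 (0.16), sgRNA 15 replicate 1 (0.078) or sgRNA 15 replicate 3 (0.070). Tcof1, which encodes treacle, a nucleolar protein that acts with the polymerase I factor UBF, was at 244, 255 and 262 CPM with the safe guide, 259, 262 and 267 with sgRNA 11 and 247, 252 and 256 with sgRNA 15. Each guide group of Tcof1 overlapped the safe group, and the guide groups did not overlap each other. It was not called with either guide, at 0.05 ± 0.03 and -0.01 ± 0.03. Offsets for GC content and gene length, however, gave -0.071 (adjusted p = 0.0069) with sgRNA 11 and -0.070 (0.0078) with sgRNA 15. Library size as the only scaling gave 0.084 (0.0042) with sgRNA 11. With sgRNA 11 it was also called higher with a minimum mean of 5 CPM (0.0077), without safe replicate 3 (0.042) and without sgRNA 11 replicate 1 (0.039).

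All 6 genes of the scaffold group were called lower with both guides, as were 25.7% of all genes tested. Among the 6 were the most abundant of the 57, Ncl, and those with the largest decreases with sgRNA 11, Gnl3 and Ncl. With sgRNA 15 the largest decreases were those of Nop2 and Nop16, both 60S factors. Ncl (ENSMUSG00000026234, chr1:86344719-86359400, minus strand) encodes nucleolin, an abundant RNA-binding protein of the nucleolus. It was at 1870, 1846 and 1763 CPM with the safe guide, 734, 755 and 744 with sgRNA 11, and 899.8, 881 and 883 with sgRNA 15. The 3 groups were far apart for Ncl, and the log2 fold changes were -1.29 ± 0.02 and -1.04 ± 0.02. Npm1 (ENSMUSG00000057113, chr11:33152287-33163206, minus strand), nucleophosmin, the main protein of the granular component, moved least in the group. Its levels were 870.2, 859 and 803 CPM with the safe guide, 589, 561 and 569 with sgRNA 11 and 629.7, 622 and 630.2 with sgRNA 15, or -0.56 ± 0.02 and -0.43 ± 0.02 on the log2 scale. Gnl3 (ENSMUSG00000042354, chr14:31012433-31019152, minus strand), the GTP-binding protein nucleostemin, had the largest decrease of all 57 genes with sgRNA 11. It was at 75.9, 79.3 and 74.98 CPM with the safe guide, 31.4, 28.9 and 29.0 with sgRNA 11, and 41.4, 41.6 and 41.3 with sgRNA 15, at -1.36 ± 0.05 and -0.89 ± 0.05. Nolc1, a chaperone of snoRNPs, went from 312 ± 2.46 CPM to 144 ± 3.59 with sgRNA 11 and 167 ± 3.73 with sgRNA 15. The helicase gene Ddx21 went from 385 ± 9.24 to 193 ± 3.37 and 210.2 ± 4.59 CPM, and Mybbp1a, which encodes a nucleolar MYB-binding protein, from 643 ± 3.92 to 349 ± 5.07 and 366 ± 1.75 CPM.

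**Figure D4:**
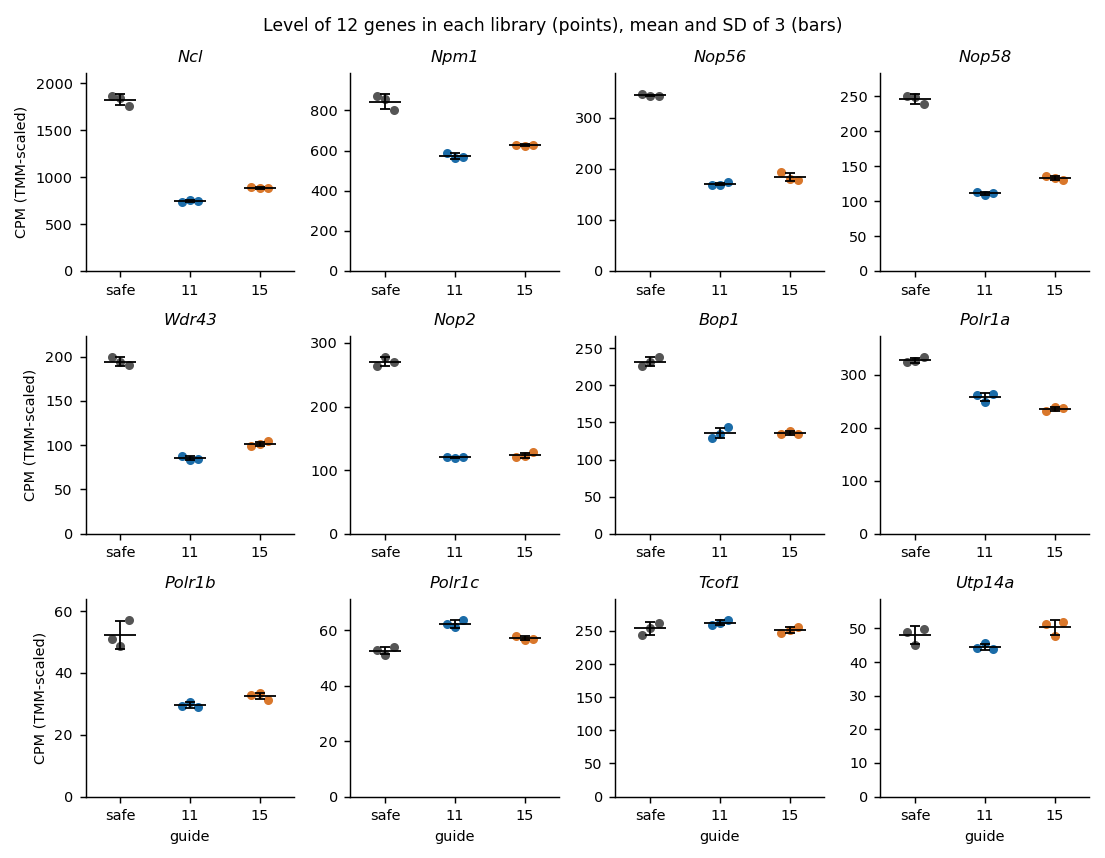
CPM (vertical axes, from 0, scaled by TMM) of 12 of the genes in each library of the 3 guide groups (points), with the mean and SD of 3 libraries (bars). Ncl, Npm1, Nop56, Nop58, Wdr43, Nop2, Bop1, Polr1a and Polr1b lie lower with both guides, and Polr1c lies higher. For Tcof1 and Utp14a each guide group overlaps the safe group, and the guide groups do not overlap each other.

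Protein genes of the modifying snoRNPs were lower in mRNA level as a group. In all, 3 of 3 box C/D genes and 4 of 4 box H/ACA genes were called lower with both guides, as were 25.7% of all genes. Nop56 and Nop58 form the core on which a box C/D particle is built. Nop56 (ENSMUSG00000027405, chr2:130274430-130279313, plus strand) was at 345.5, 343 and 343 CPM with the safe guide, 169, 168.5 and 173 with sgRNA 11 and 193, 179.8 and 178 with sgRNA 15. Nop58 (ENSMUSG00000026020, chr1:59684971-59719044, plus strand) was at 251, 249 and 239 CPM, then 113, 109.5 and 111.5, then 136, 133 and 131, in the same order. Neither gene's guide libraries came near its safe ones: the log2 fold changes of Nop56 were -1.01 ± 0.03 (sgRNA 11) and -0.90 ± 0.03 (sgRNA 15), those of Nop58 -1.14 ± 0.03 and -0.89 ± 0.03. Fbl, the methyltransferase of the particle, was lower by less, -0.68 ± 0.03 and -0.67 ± 0.03, from 214 ± 6.49 CPM with the safe guide. Among the H/ACA proteins Dkc1 (ENSMUSG00000031403, chrX:75095854-75109777, plus strand), the pseudouridine synthase, was at 283, 275 and 269.5 CPM with the safe guide, 182, 178.5 and 178.5 with sgRNA 11 and 228, 214 and 213 with sgRNA 15. Its 3 groups did not overlap, and sgRNA 15 lay between the other groups. Nhp2, another core protein, was at 193, 182.5 and 195.5 CPM with the safe guide, 108, 115 and 112 with sgRNA 11 and 118, 108 and 123.5 with sgRNA 15, and the guides overlapped. The remaining core proteins followed, Gar1 from 74.0 ± 4.26 CPM to 48.1 ± 2.42 and 50.6 ± 2.64, and Nop10 from 69.4 ± 2.70 to 43.8 ± 2.78 and 42.3 ± 1.45.

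UtpA, the first complex to bind the nascent precursor, was lower in 5 of 5 genes with both guides, with medians of -0.82 with sgRNA 11 and -0.66 with sgRNA 15. Over all genes tested, 25.7% were called lower with both guides. Wdr43 (ENSMUSG00000041057, chr17:71615895-71659031, plus strand), a WD-repeat subunit, was at 199, 194 and 190.3 CPM with the safe guide, 87.6, 83.5 and 84.1 with sgRNA 11 and 99.6, 102 and 104 with sgRNA 15. Wdr75, another WD-repeat subunit, was at 134, 129.9 and 122 CPM, then 68.2, 70.6 and 66.3, then 78.5, 85.9 and 79.6. In both, each guide group lay under the safe group and the sgRNA 15 libraries lay above those of sgRNA 11. The other UtpA genes, Heatr1, Utp4 and Utp15, were lower by 0.61 to 0.82 on the log2 scale with sgRNA 11 and by 0.35 to 0.67 with sgRNA 15. UtpB joins next, and 3 of 3 of its genes were lower with both guides. Wdr36 was at 98.9, 97.1 and 96.6 CPM with the safe guide, 51.75, 53.7 and 53.8 with sgRNA 11 and 59.2, 64.2 and 63.1 with sgRNA 15. Wdr3 was lower by less, from 109, 108 and 112 CPM to 85.0, 78.8 and 77.3 and to 96.0, 91.5 and 90.9, without overlap between groups. Spag17 overlaps 15.7% of the exon length of Wdr3, so its count is uncertain. Utp18, whose promoter is printed above, was at 90.95 ± 1.17, 52.9 ± 1.85 and 62.1 ± 0.709 CPM.

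Of the 9 other 90S factors, 9 were called lower with sgRNA 11 and 8 with sgRNA 15, where 32.4% and 30.7% of all genes were. Utp20, a large repeat protein that spans the particle, was at 153, 147 and 147 CPM with the safe guide, 95.2, 95.6 and 94.0 with sgRNA 11, and 110.3, 112.5 and 108 with sgRNA 15. Imp4, which helps the U3 snoRNA pair with the precursor, was lower by little, from 116, 113 and 111 CPM to 92.1, 94.1 and 99.6 and to 98.2, 101 and 100.5. Its log2 fold changes were -0.25 ± 0.04 and -0.18 ± 0.04, and the guide libraries lay under the safe ones without overlap. Nop14 was at 54.6, 54.4 and 51.3 CPM with the safe guide, 41.4, 36.2 and 36.3 with sgRNA 11, and 48.95, 45.8 and 48.1 with sgRNA 15. Utp14a (ENSMUSG00000063785, chrX:48256862-48282453, plus strand), the cofactor that activates the helicase Dhx37, was the exception. It was at 49.0, 45.1 and 49.99 CPM with the safe guide, 44.1, 45.6 and 43.95 with sgRNA 11 and 51.3, 47.9 and 51.9 with sgRNA 15, so both guide groups overlapped the safe group. Its call with sgRNA 11 (-0.11 ± 0.05) was lost in DESeq2 (adjusted p = 0.076), with library size only, GC and length offsets, no filter or a minimum mean of 5 CPM (0.066 to 0.17), and on leaving out any of 6 of the 9 libraries (safe replicates 1 and 3, sgRNA 11 replicates 1 and 3, sgRNA 15 replicates 1 and 2, with adjusted p from 0.050 to 0.16). With sgRNA 15 it was not called (0.06 ± 0.05), and 9530027J09Rik overlaps 11.4% of its exon length, so its count is uncertain. The helicase Dhx37 itself was lower by 0.64 with sgRNA 11 and by 0.60 with sgRNA 15 on the log2 scale. The remaining 90S genes, Rrp9, Nat10, Noc4l and Ddx10, were lower by 0.39 to 0.66 with sgRNA 11 and by 0.28 to 0.60 with sgRNA 15.

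All 5 late 40S factors were called lower with both guides, as were 25.7% of all genes. Bysl, which binds the pre-40S particle in the nucleus, was at 97.3, 104 and 109 CPM with the safe guide, 66.4, 63.0 and 65.3 with sgRNA 11 and 61.7, 60.1 and 66.9 with sgRNA 15. Nob1, the endonuclease that makes the final cut of the small-subunit rRNA, was at 84.5, 88.0 and 92.25 CPM, then 59.0, 62.5 and 62.9, then 62.2, 60.8 and 61.3. For both genes the guides overlapped each other and lay under the safe libraries. Tsr1, a GTPase-like factor of the late particle, was lower by the most in this group, from 70.9 ± 1.93 CPM to 31.4 ± 1.30 and 35.02 ± 1.90. Srr overlaps 32.3% of its exon length, so this count is uncertain. Rrp12 and Ltv1, both factors of nuclear export and maturation of the particle, were lower by 0.64 each with sgRNA 11 and by 0.50 and 0.41 with sgRNA 15.

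On the large-subunit side, 3 of 3 PeBoW genes and 14 of 14 other 60S factors were called lower with sgRNA 11, and 3 of 3 and 13 of 14 with sgRNA 15. The shares of all genes tested called lower were 32.4% with sgRNA 11 and 30.7% with sgRNA 15. Within PeBoW, a trimer needed for large-subunit rRNA processing, subunits differed in size of change. Bop1 was at 226, 232 and 238 CPM with the safe guide, 129.5, 135 and 143 with sgRNA 11 and 134, 139 and 134 with sgRNA 15, at -0.77 ± 0.03 with either guide. Wdr12 was lower by 0.65 and 0.63 on the log2 scale. Pes1, the third subunit, was lower by less, at 149, 148 and 143 CPM, then 123, 125.5 and 124.7, then 116, 118 and 113, or -0.24 ± 0.03 and -0.34 ± 0.03, with no overlap among the 3 groups. Nop2 (ENSMUSG00000038279, chr6:125131909-125144753, plus strand), an rRNA cytosine methyltransferase, was at 264, 277.5 and 270.4 CPM with the safe guide, 121, 119 and 120.5 with sgRNA 11 and 121, 122 and 128 with sgRNA 15. Its decrease was -1.17 ± 0.03 and -1.13 ± 0.03, the largest of the 60S factors with either guide. Rrs1 and Ebna1bp2 act early in assembly of the large subunit. Rrs1 was at 177, 181 and 176 CPM with the safe guide, 95.3, 99.7 and 101 with sgRNA 11 and 124, 122 and 129.8 with sgRNA 15. Ebna1bp2 was at 101, 94.4 and 98.1 CPM, then 61.4, 60.5 and 60.7, then 72.0, 74.1 and 73.5. In both, sgRNA 15 lay between the other groups. Rrp1 (ENSMUSG00000061032, chr10:78400384-78413043, minus strand) moved least, at 174.5, 174.8 and 184.8 CPM, then 161.8, 159.7 and 169.4, then 172.5, 164.2 and 174.2. Its guide libraries lay just under the safe ones. It was called lower with sgRNA 11 (-0.12 ± 0.03) and not with sgRNA 15 (-0.06 ± 0.03, adjusted p = 0.057), a result that changed with small choices: it was called lower with sgRNA 15 without any 1 of 7 libraries (all but safe replicate 3 and sgRNA 15 replicate 2, adjusted p from 0.012 to 0.048), and with relative log expression factors, GC and length offsets, the replicate block or only the 2 groups fitted (0.00017 to 0.047). Rrp1b, its paralog and a gene picked here after its values were seen, was lower by 0.77 on the log2 scale with both guides, from 113 ± 5.23 CPM to 66.1 ± 1.62 and 66.2 ± 2.14. The other 60S genes, Nop16, Ddx18, Mrto4, Noc2l, Brix1, Nip7, Noc3l, Ddx56 and Ddx27, were lower by 0.38 to 1.01 with sgRNA 11 and by 0.32 to 1.11 with sgRNA 15. Nop16 had the largest and Ddx27 the smallest decrease of these with either guide. Samd11 overlaps 20.9% of the exon length of Noc2l, so its count is uncertain.

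The guides also differed from each other, and most of that difference had one sign. In edgeR's test of sgRNA 15 against sgRNA 11, 32 of the 57 genes were called, 29 higher with sgRNA 15 and 3 lower, where 33.5% of all genes were called, 18% higher and 15.5% lower. The median was 0.11 on the log2 scale, and 0.01 over all genes tested. In 33 genes the 3 sgRNA 15 libraries all lay above the 3 of sgRNA 11 (22.8% of all genes), and in 5 all lay below (20% of all genes). Of the 53 genes lower with both guides, 28 were higher with sgRNA 15 than with sgRNA 11 and 2 were lower. The matching shares among all 3452 genes called lower with both guides were not computed, so nothing is read from these 2 counts. The sgRNA 11 libraries belong to a contrast that was known when the genes were chosen, so this contrast is not independent of the choice. By role, 6 of 6 scaffold genes, 3 of 3 UtpB genes and 4 of 5 UtpA genes were higher with sgRNA 15, as were 2 of 3 box C/D genes, 3 of 5 late 40S genes, 4 of 9 other 90S genes, 6 of 14 other 60S genes and 1 of 4 H/ACA genes. None of the PeBoW or polymerase I genes was called higher in this test. Polr1b came nearest, at 0.14 ± 0.06 (adjusted p = 0.051), with its 3 sgRNA 15 libraries above those of sgRNA 11, and it was likewise not called in 14 of 19 alternatives.

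The largest difference was that of Gnl3, higher with sgRNA 15 by 0.48 ± 0.05 on the log2 scale (adjusted p = 2.4e-12). Rrs1 followed at 0.34 ± 0.03 (adjusted p = 1.0e-14), then Nop14 at 0.32 ± 0.05 (3.7e-07), Dkc1 at 0.28 ± 0.03 (5.2e-14) and Ebna1bp2 at 0.27 ± 0.04 (1.0e-07). Ncl was higher by 0.25 ± 0.02 (adjusted p = 2.0e-16), and Npm1 by 0.13 ± 0.02 (8.3e-06). The genes that were lower with sgRNA 15 were Polr1a, by -0.13 ± 0.03 (adjusted p = 4.1e-05), Polr1c, by -0.13 ± 0.045 (0.019), and Pes1, by -0.10 ± 0.03 (0.01). Utp14a was higher with sgRNA 15 than with sgRNA 11 by 0.17 ± 0.05 (adjusted p = 0.0037). Of the 57 genes, 33 kept both the sign and the call or lack of it in all 19 alternatives. Among genes not called, Nob1 (8 of 19), Tcof1 (10) and Rrp1b (11) kept theirs least often, where a change of sign near 0 also counts. The 3 sgRNA 15 libraries of Tcof1 all lay below those of sgRNA 11. Of the 32 calls, 26 held without any 1 library. The call of Polr1c was lost without sgRNA 11 replicate 3 (adjusted p = 0.072) or sgRNA 15 replicate 2 (0.053) and with offsets for GC content and gene length (0.21), and that of Nop56 (0.11 ± 0.03) without sgRNA 15 replicate 1 (0.13). The call of Mybbp1a (0.07 ± 0.02, adjusted p = 0.026) was lost without sgRNA 11 replicate 1 or 2 or any 1 sgRNA 15 library (0.080 to 0.20), with no filter (0.20) and with a minimum mean of 5 CPM (0.057). The call of Rrp12 (0.14 ± 0.05, 0.0090) was lost without sgRNA 11 replicate 1 (0.098) or sgRNA 15 replicate 3 (0.066). The call of Tsr1 (0.15 ± 0.06, 0.023) was lost without replicate 1 or 3 of either guide (0.062 to 0.16), in DESeq2 (0.054), with GC and length offsets (0.098) and with no filter (0.071). The call of Rrp9 (0.14 ± 0.05, 0.041) held only without safe replicate 3 or sgRNA 15 replicate 2, and was lost without any other library (0.051 to 0.15), in DESeq2 (0.085) and limma-voom (0.052), with no filter (0.13), with a minimum mean of 5 CPM (0.051) and with only the 2 groups fitted (0.059). Rrp12, Tsr1 and Rrp9 are named here for this, after their values were seen.

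**Figure D5:**
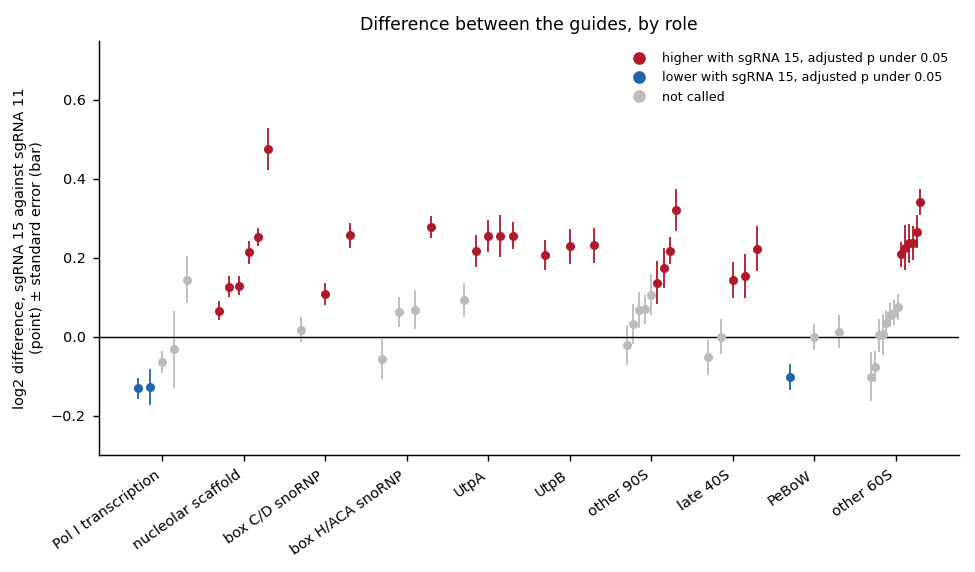
Log2 difference of sgRNA 15 against sgRNA 11 (vertical axis) of each of the 57 genes with its standard error (bars), by role (horizontal axis) and sorted within it. Red and blue points are genes called higher (29) and lower (3) with sgRNA 15 at an adjusted p under 0.05, and grey points are the 25 genes not called; scaffold, UtpA and UtpB points lie above 0.

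The 57 genes were close to all tested genes in length and base composition and above them in level. Their median exon length was 3897 bases (3997 over all tested genes) and the median GC content of the longest transcript 50.1% (49.6%). They lie on 18 chromosomes. The median level was 78.2 CPM (24.9 over all tested genes), or 20.2 CPM per kilobase of exon (5.67). Per kilobase, Npm1 was highest at 256 CPM, ahead of Nhp2 at 122 and Ncl at 113, and Polr1e was lowest at 3.54. Replicates were tight, with a median coefficient of variation over the 57 genes of 2.72% with the safe guide, 2.98% with sgRNA 11 and 3.09% with sgRNA 15. The widest were Polr1e with the safe guide (12.7%), Nop14 with sgRNA 11 (7.85%) and Ddx10 with sgRNA 15 (6.93%).

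In the annotation 7 of the genes, Ncl, Gnl3, Nop56, Nop58, Dkc1, Wdr43 and Tsr1, contain snoRNA genes within their span, 21 in all. Intronic snoRNAs are released from the same precursor as the host's mRNA, and are themselves the guides of the snoRNPs. The median log2 fold change of these 7 hosts was -1.18 with sgRNA 11 (from -1.36 to -0.62) and -0.90 with sgRNA 15 (from -1.04 to -0.34). In the other 50 genes it was -0.66 (from -1.17 to 0.24) and -0.57 (from -1.13 to 0.12). This split was made after the values were seen and is given without a test, and the ranges overlap. Mature snoRNAs have no poly(A) tail, and their counts were not analysed here.

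The E-box CACGTG was found in the windows of 10 of the 50 genes with a window (20.0%; 18.5% of their windows), against 10.0% of the windows of all tested genes and 7.15% of all 32851 windows. The genes were Imp4, Ltv1, Mybbp1a, Nop2, Pes1, Tsr1, Utp18, Utp20, Utp4 and Wdr43. The ETS core CCGGAAG was found for 20 of the 50 genes (38.9% of their windows), against 18.2% of windows of tested genes and 8.86% of all windows. Of 3 further motifs searched on both strands, the GC box GGGCGG was in 72.2% of the windows of these genes (62.2% for all tested genes), an NRF1 element in 1.85% (2.16%), and a CGCG element in none (1.03%). In the 10 genes with the E-box the median log2 fold change was -0.77 with sgRNA 11 and -0.61 with sgRNA 15, and in the 40 without it -0.66 and -0.61. The largest decreases stood on both sides, with Wdr43 and Nop2 among the genes that held the E-box and Gnl3 and Ncl among those that did not. The window of Wdr43 lies wholly inside the gene as the GENCODE annotation places it, so its E-box lies after that start. A match is a run of letters in the window and says nothing on binding in these cells.

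A wider list of 134 further pathway genes, sorted by role and not by value, was for the most part lower too, with medians nearer to 0. Of the 133 that passed the filter, 106 were called lower and 9 higher with sgRNA 11, with a median of -0.44. With sgRNA 15, 104 were called lower and 8 higher, with a median of -0.35. Among all genes tested 32.4% were lower and 33.3% higher with sgRNA 11, and 30.7% and 32.2% with sgRNA 15. Their summed share of reads was 77.3% and 80.4% of that with the safe guide. By role, 42 of 50 other 60S genes were lower with each guide, 37 and 35 of 47 other 90S and 40S genes, 13 and 14 of 14 nuclear exosome genes, 7 and 6 of 9 snoRNP assembly genes, and 7 of 13 other polymerase I genes with each. Ubtf, the polymerase I factor UBF, was at 250.4 ± 7.61 CPM with the safe guide, 223 ± 8.46 with sgRNA 11 and 207 ± 1.65 with sgRNA 15, while Baz2a, a subunit of a complex that silences rRNA genes, was not called with either guide (82.5 ± 2.74, 86.6 ± 0.928 and 82.6 ± 2.09 CPM). Baz2a was called higher with sgRNA 11 with library size as the only scaling (0.10, adjusted p = 0.016) and with a minimum mean of 5 CPM (0.094, 0.022). Snu13, a further core protein of box C/D particles, went from 215 ± 3.34 CPM to 134 ± 1.97 and 140.4 ± 1.30, and Dhx15, a helicase, from 285 ± 5.84 to 199 ± 7.01 and 215 ± 3.53. Eif6, which keeps the immature large subunit from joining the small one, went from 304 ± 8.31 to 218 ± 2.89 and 226 ± 7.74 CPM. The AAA-type ATPase genes Ruvbl1 and Ruvbl2, which serve snoRNP assembly, were lower by 0.69 and 0.34 on the log2 scale with sgRNA 11 and by 0.60 and 0.35 with sgRNA 15, where Gys1 overlaps 10.7% of the exon length of Ruvbl2. The exonuclease genes Xrn2 and Exosc10 were lower by 0.37 and 0.12, and by 0.33 and 0.10. The call of Exosc10 with sgRNA 15 was lost with library size as the only scaling (adjusted p = 0.11).

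In the wider list 7 genes were called higher with both guides, as were 26% of all genes tested. The 3 of the 7 with the largest change follow. Nop53, a 60S factor that brings the exosome to the pre-60S particle, was at 128, 132.5 and 133 CPM with the safe guide, 223, 224 and 229 with sgRNA 11 and 187, 191 and 189 with sgRNA 15. The groups of Nop53 did not overlap, at 0.78 ± 0.03 and 0.53 ± 0.03, and sgRNA 15 was lower than sgRNA 11 by -0.25 ± 0.03 (adjusted p = 2.1e-12). Zfp622, a late 60S factor, was higher by 0.39 ± 0.03 with each guide, from 149 ± 3.78 CPM to 194 ± 0.635 and 195 ± 12.4. Trmt112, an activator of methyltransferases, was higher by 0.34 ± 0.05 and 0.28 ± 0.05, but Prdx5 overlaps 33.2% of its exon length and its count is uncertain.

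Genes near the pathway did not all follow it. Of 76 ribosomal protein genes that passed the filter, 68 were called higher and 2 lower with sgRNA 11, with a median of 0.27. With sgRNA 15, 46 were called higher and 6 lower, with a median of 0.12. The shares of all genes tested were 33.3% higher and 32.4% lower with sgRNA 11, and 32.2% and 30.7% with sgRNA 15. Between the guides, 57 of the 76 were called lower with sgRNA 15 than with sgRNA 11 (15.5% of all genes), with a median of -0.14. Their summed share of gene reads was 5.27% ± 0.0129 (SD of 3 libraries) with the safe guide, 6.42% ± 0.0743 with sgRNA 11 and 5.88% ± 0.127 with sgRNA 15. Many ribosomal protein genes have near-identical pseudogenes, and reads that fit several places were tallied apart and are missing from these counts. The signs of these medians held with library size as the only scaling (0.30 and 0.16) and with offsets for GC content and gene length (0.25 and 0.12). Of 12 subunit genes of polymerase II, 11 were called lower with sgRNA 11 and 9 with sgRNA 15, with medians of -0.31 and -0.36. Of 11 of polymerase III, 7 were called lower and 2 higher with each guide, with medians of -0.29 and -0.25. In either direction 65.8% of all genes were called with sgRNA 11 and 62.9% with sgRNA 15.

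In the network of MYC, a transcription factor long known to act on ribosome biogenesis genes, 4 of 10 genes were called higher and 4 lower with each guide. Over all genes 33.3% were called higher and 32.4% lower with sgRNA 11, and 32.2% and 30.7% with sgRNA 15, shares near those of these 10 genes. Myc was at 23.6, 21.0 and 23.5 CPM with the safe guide, 15.3, 12.7 and 13.5 with sgRNA 11 and 11.1, 13.9 and 13.3 with sgRNA 15. Both guide groups lay under the safe group, at -0.71 ± 0.08 and -0.83 ± 0.08. Mxd4, which encodes a repressor that pairs with MAX in place of MYC, was at 19.4, 20.8 and 19.4 CPM with the safe guide, 71.6, 69.85 and 70.7 with sgRNA 11 and 36.8, 41.05 and 41.9 with sgRNA 15, and was higher by 1.83 ± 0.05 and 1.01 ± 0.06. Mxi1 and Mxd1, of the same family, were higher by 0.38 and 0.40 with sgRNA 11 and by 0.35 and 0.43 with sgRNA 15. Max, Mga and Mlx were lower by 0.34, 0.32 and 0.39 with sgRNA 11 and by 0.24, 0.14 and 0.20 with sgRNA 15. Psmc3ip overlaps 19.3% of the exon length of Mlx. Mxd3 was at 5.49 ± 0.283, 6.81 ± 1.23 and 5.20 ± 0.752 CPM and was called higher with sgRNA 11 only, a call lost in DESeq2 (adjusted p = 0.087), with GC and length offsets (0.14) and without safe replicate 1 or 3 or sgRNA 11 replicate 1 or 3 (0.069 to 0.21). Mnt was at 63.0 ± 2.23, 62.2 ± 3.26 and 69.55 ± 1.00 CPM and was called higher with sgRNA 15 only, a call lost with GC and length offsets (0.086), which gave a call lower with sgRNA 11 (-0.15, adjusted p = 0.0020). Mlxip was at 55.1 ± 2.09, 52.9 ± 1.56 and 52.9 ± 1.25 CPM and was called with neither guide, though with the same offsets it was called lower with sgRNA 11 (-0.12, adjusted p = 0.014). The part of these genes in the levels of the 57 was not tested.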

How the data were processed

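Reads per gene were counted by the authors with STAR and HTSeq on mm10, per the submitters' processing notes, and the deposited values are raw counts. The sources used here give no versions, gene annotation or strand setting. HTSeq's tallies of reads in no gene (ambiguous 6.32 to 6.56%, more than 1 place 6.20 to 6.69% of each table) stayed out of library sizes. Names, positions, lengths and exon overlaps came from GENCODE M21.

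Counts of all 9 libraries were fitted together in edgeR 4.0.16 (R 4.3.3): filterByExpr with a minimum count of 10, TMM (factors 0.979 to 1.02), robust quasi-likelihood F tests, 2-sided, with Benjamini-Hochberg adjustment over 13453 genes and a threshold of 0.05. Counting error and depth enter through these fits. CPM are scaled by TMM; fold changes are given with standard errors. The procedure was tested on simulated data. Alternatives were DESeq2 1.42.0, limma-voom (limma 3.58.1), other scalings, filters and thresholds, a replicate block, and each library left out.

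The genes, lists and tests were chosen with earlier results of these data known. Named genes were, in each role, the 2 with the highest mean CPM; the 5 largest differences each way between the guides; and every gene not lower with both guides. From the wider list they were the 2 with the highest mean CPM per role and up to 3 higher with both guides, from the MYC network all whose mean reached 5 CPM, and Slc12a9. Other genes named were picked after their values were seen. In the wider list Nopchap1 matched no gene and Exosc6 had 0 reads. In that list 4 genes were matched through older symbols. No replicate pair agreed within sampling noise.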

Additional observations from a re-analysis of the deposited data

Results flagged for a closer look

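The level of 32 of the 57 genes differed between the sgRNA 15 and sgRNA 11 libraries, by edgeR's test of the difference itself. Of these, 29 were higher with sgRNA 15 and 3 lower, where 33.5% of all genes were called, 18% higher and 15.5% lower. The sgRNA 11 libraries belong to a contrast known when the genes were chosen, so this test is not independent of that choice. Utp14a was called lower than with the safe guide with sgRNA 11, a call kept in only 7 of 19 alternatives, and not with sgRNA 15. Its difference between the guides was 0.17 on the log2 scale (adjusted p = 0.0037).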

How the results depend on the processing

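The number of the 57 genes called stayed within 1.5 times under every alternative run: 55 to 56 with sgRNA 11, 53 to 56 with sgRNA 15 and 28 to 37 between the guides, and 55 to 56, 54 to 55 and 28 to 34 on leaving out 1 library. With the replicate number as a block 56, 55 and 34 were called. Deviations from the group mean correlated at -0.0077 to 0.058 between libraries of the same number and at -0.072 to 0.041 between others. Correlations this small cannot settle whether the numbers pair libraries. The median log2 fold change moved by more than the replicate spread to -0.65 (sgRNA 11) and -0.57 (sgRNA 15) with library size as the only scaling, to -0.74 and -0.63 with offsets for GC content and gene length, and to -0.63 with sgRNA 15 without safe replicate 1; on leaving out 1 library it ran from -0.70 to -0.67 and from -0.63 to -0.59. Between the guides, 32 genes of the wider list were called at an adjusted p under 0.01, against 49 at 0.05. Signs turned only for values near 0. With sgRNA 11 these were Tcof1 (-0.071 with GC and length offsets) and Mnt (0.015 with library size only, 0.0065 with a minimum of 5 CPM, -0.070 to 0.017 without 1 library). With sgRNA 15 these were Tcof1 (0.026 with library size only), Baz2a (-0.0062 in DESeq2, -0.0059 with relative log expression factors, -0.037 with GC and length offsets, -0.00044 with no filter, -0.024 to 0.016 without 1 library) and Slc12a9 (-0.012 with GC and length offsets, -0.016 to 0.11 without 1 library). The causes were not tested. Every one of the 57 genes had at least 190 reads per library, and standard errors against the safe guide ran from 0.02 for Ncl to 0.09 for Polr1e.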
